A study of Mus musculus with 8 samples.

Results

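The results below describe 9 genes with which microglia sense their surroundings and mark material for removal, out of 32285 genes counted. They are the complement genes C1qa, C1qb and C1qc, the receptor genes P2ry12, Cx3cr1, Csf1r and Trem2, the membrane protein gene Tmem119 and the metal transporter gene Slc11a1. The members were matched by symbol, and each matched 1 row of the gene list. They were chosen by measured values of these same libraries, namely their level in microglia against other cell types and their level in wild type against Chd8 heterozygous microglia. Those contrasts are therefore given for the members as a description, with no test.

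RNA was counted in single nuclei of cerebral cortex, without its medial part, from 8 C57BL/6J mice at postnatal day 25. There were 4 wild type (WT) and 4 Chd8+/- (Chd8het) animals, 2 males and 2 females of each genotype, taken as 4 litter- and sex-matched pairs, with 1 library per animal. Chd8 encodes a chromatin remodelling helicase, and the loss is carried by the whole animal, so that a difference in microglia need not arise in microglia. Within every group of like sex and genotype, the library of replicate 1 carried a single index and that of replicate 2 a dual index, an index being the sequence that marks a library.

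C1qa, C1qb and C1qc encode the chains of C1q, the recognition molecule of the classical complement pathway, which in developing brain tags synapses and debris for uptake by microglia. P2ry12 is the receptor with which resting microglia follow released nucleotides, Cx3cr1 is the receptor of the neuronal chemokine fractalkine (Cx3cl1), Csf1r is the receptor of the survival factors Csf1 and Il34, and Trem2 is a lipid receptor that signals through the adaptor Tyrobp. Tmem119 is a microglial surface marker of little known function. Slc11a1, also called Nramp1, carries iron and manganese out of the phagosome and is known for its part in resistance to intracellular pathogens.

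In GENCODE M21 on GRCm38 the C1q genes lie side by side on the minus strand of chromosome 4, C1qb at 136880129-136886187, C1qc at 136889804-136893065 and C1qa at 136895917-136898803. Slc11a1 lies on the plus strand of chromosome 1 at 74375195-74386062, and Trem2 on the plus strand of chromosome 17 at 48346401-48354147. Tmem119 lies on the minus strand of chromosome 5 at 113793729-113800516. P2ry12 is on the minus strand of chromosome 3 at 59216272-59262871, wholly inside Med12l, which is transcribed from the opposite strand. Cx3cr1 is annotated over 168264 bases on the minus strand of chromosome 9 at 119901616-120069879, a span that 9 other genes overlap. C1qa, C1qb, C1qc, Trem2, Tmem119 and Slc11a1 overlap no other annotated gene.

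Promoter sequences were held for 6 of the 9 members in the RefSeq table (GRCm38.p6). They are shown because these genes share a high level in myeloid nuclei, and because GAGGAA is the core of the motif bound by PU.1 (Spi1), the transcription factor that specifies myeloid cells. Searched on both strands from 250 bases before to 50 after the start, GAGGAA or its complement TTCCTC was present in 4 of the 6, those of Slc11a1, C1qb, C1qc and Trem2. It was present in 28.3% of all 32851 promoter windows of that length, and the longer form GAGGAAGT in 3.20%, among the members in C1qc alone. The match begins at position -152 from the start in Slc11a1, -30 in C1qb, -193 in C1qc and -40 in Trem2. The starts are those of RefSeq, which differ from GENCODE's: the C1qc start lies inside the GENCODE gene, so that most of that stretch overlaps it, and the Slc11a1 stretch reaches a few bases into its gene. The 250 bases before the RefSeq start of these 4 genes follow, 5′ to 3′ on the gene's strand, with the motif in capitals.
Slc11a1 (chr1:74374953-74375202, plus strand): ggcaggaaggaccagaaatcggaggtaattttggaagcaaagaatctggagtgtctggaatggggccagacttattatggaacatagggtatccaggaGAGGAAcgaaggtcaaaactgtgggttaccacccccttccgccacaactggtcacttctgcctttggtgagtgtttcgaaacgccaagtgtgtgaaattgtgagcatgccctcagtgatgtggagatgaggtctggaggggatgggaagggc
C1qb (chr4:136886201-136886450, minus strand): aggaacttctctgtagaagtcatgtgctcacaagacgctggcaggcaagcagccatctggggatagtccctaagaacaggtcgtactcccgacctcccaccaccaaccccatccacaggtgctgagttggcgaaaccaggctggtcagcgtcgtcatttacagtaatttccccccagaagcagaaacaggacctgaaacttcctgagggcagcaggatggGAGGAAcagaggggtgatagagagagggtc
C1qc (chr4:136892915-136893164, minus strand): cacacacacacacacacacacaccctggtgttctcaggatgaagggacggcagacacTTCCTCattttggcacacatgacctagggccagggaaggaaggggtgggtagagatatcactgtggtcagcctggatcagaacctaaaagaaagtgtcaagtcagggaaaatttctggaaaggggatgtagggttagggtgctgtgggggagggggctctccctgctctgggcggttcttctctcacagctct
Trem2 (chr17:48346151-48346400, plus strand): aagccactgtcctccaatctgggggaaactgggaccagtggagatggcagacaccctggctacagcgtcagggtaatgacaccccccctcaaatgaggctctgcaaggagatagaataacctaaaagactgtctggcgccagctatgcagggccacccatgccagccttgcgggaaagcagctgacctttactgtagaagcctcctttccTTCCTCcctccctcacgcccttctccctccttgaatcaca
The windows of P2ry12 and Cx3cr1 did not hold these letters. A match is a description of the sequence and was not tied to any measurement here.

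The 8 libraries held 97772 barcodes and between 69503598 and 98132783 UMIs (unique molecular identifiers, which count captured RNA molecules) each, and 8022 to 11663 nuclei per library passed the filters. Of the 97772 barcodes, 1149 barcode sequences occurred in more than 1 library. Nuclei were assigned to 10 cell types from marker genes that include none of the 9 members. This gave 3455 microglia-like nuclei, 301 to 548 per library, with 5579237 UMIs in all and a median of 1273 to 1648 UMIs per nucleus. The 10 genes that led this gate over all other nuclei were Inpp5d, Adap2, Apbb1ip, Ly86, Siglech, Ikzf1, Tgfbr1, Csf1r, Dock8 and Zfhx3, of which 6 were gating markers and 1 was a member. The gate was at 20 marker UMIs per 10000. Per library, 1 to 9 microglia-like nuclei had under 30, 31 to 87 nuclei outside the gate had 10 to 20, and 82 to 153 nuclei that also passed another gate were left out. Chd8 itself was at 78.2 ± 2.83 CPM (UMIs of the gene per 1000000 UMIs of the nuclei in question) in WT and 79.6 ± 6.34 in Chd8het (mean ± SD, n = 4 libraries each, all gated nuclei), and at 100.1 ± 3.57 and 104.6 ± 17.1 in microglia-like nuclei. Counts at the 3' end do not tell an intact allele from a disrupted one, and the labels name no allele, so the genotypes stand as labelled and are not checked by Chd8.

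All 9 members had their highest mean level in microglia-like or border macrophage-like nuclei. With the libraries pooled, microglia-like nuclei still held at most 49.7% of any member's UMIs in all kept nuclei, and in single libraries up to 60.4% (Csf1r). Kept nuclei include those in no gate and those passing more than 1 gate, so the rest was not confined to the other gated types. Levels are in CPM, and each mean is over the 8 libraries with its SD. Among the 9 members, the lowest microglial library stood above the highest library of each of the 8 types outside the myeloid lineage, by 1.83 times for Slc11a1 at the least and 11.5 times for Csf1r at the most. Against neurons, astrocytes and oligodendrocyte lineage nuclei alone, which have more UMIs, that margin was 5.04 times for P2ry12 and 11.2 to 38.3 times for the other 8. Between 97.5% and 99.4% of the microglia-like nuclei of each library carried at least 1 UMI of a member.

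The C1q genes were shared by both myeloid types. C1qa was at 669 ± 331 in microglia-like and 873 ± 436 in border macrophage-like nuclei, C1qb at 549 ± 273 and 669 ± 481, and C1qc at 583 ± 272 and 754 ± 371, and the libraries of the 2 types overlapped for each gene. The border macrophage gate, from markers such as Mrc1 and F13a1, held only 93 nuclei, 7 to 17 per library. Mural-like nuclei came next for each C1q gene, at 40.5 ± 42.2 for C1qa. From there down to excitatory neuron-like nuclei, at 5.76 ± 2.04 for C1qa, every neighbouring pair of types overlapped.

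Csf1r (GENCODE M21, plus strand of chromosome 18, 61100598-61132149) was also high in both, at 913 ± 163 in microglia-like and 732 ± 249 in border macrophage-like nuclei, and at 4.51 ± 0.882 in excitatory neuron-like nuclei. Slc11a1 was at 63.0 ± 24.7 and 66.3 ± 53.2 in the myeloid types, the latter from 10 UMIs. Outside them it was low, at 0.350 ± 0.106 in excitatory neuron-like nuclei (154 UMIs) and 1.19 ± 0.956 in astrocyte-like nuclei (21 UMIs), where the part of free RNA from other nuclei was not tested. It had 0 of 6618002 UMIs in oligodendrocyte precursor-like nuclei, which allows a level of up to 0.453 CPM (a floor of 3 UMIs).

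Tmem119, Cx3cr1, P2ry12 and Trem2 had their highest mean in microglia-like nuclei. Tmem119 was at 155 ± 40.6 there and had 0 of 160677 UMIs in border macrophage-like nuclei, which allows a level of up to 18.7 CPM by the same floor. Cx3cr1 was at 1122 ± 150 against 300.1 ± 208 in border macrophage-like nuclei, with no overlap between the libraries. P2ry12, at 894 ± 221 against 464 ± 194, and Trem2, at 214 ± 98.7 against 61.0 ± 60.2, overlapped across libraries. Compared within each library, the border macrophage-like level of P2ry12 was 25.6% to 92.3% of the microglial one, and so lower in every library. That of Trem2 was 0% to 122%. These percentages rest on few counts, 82 UMIs of P2ry12 and 10 of Trem2 in border macrophage-like nuclei over all libraries. In WT male 2 they were 3 and 2 UMIs. Counting limits and intervals cover counting error only.

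**Figure D1:**
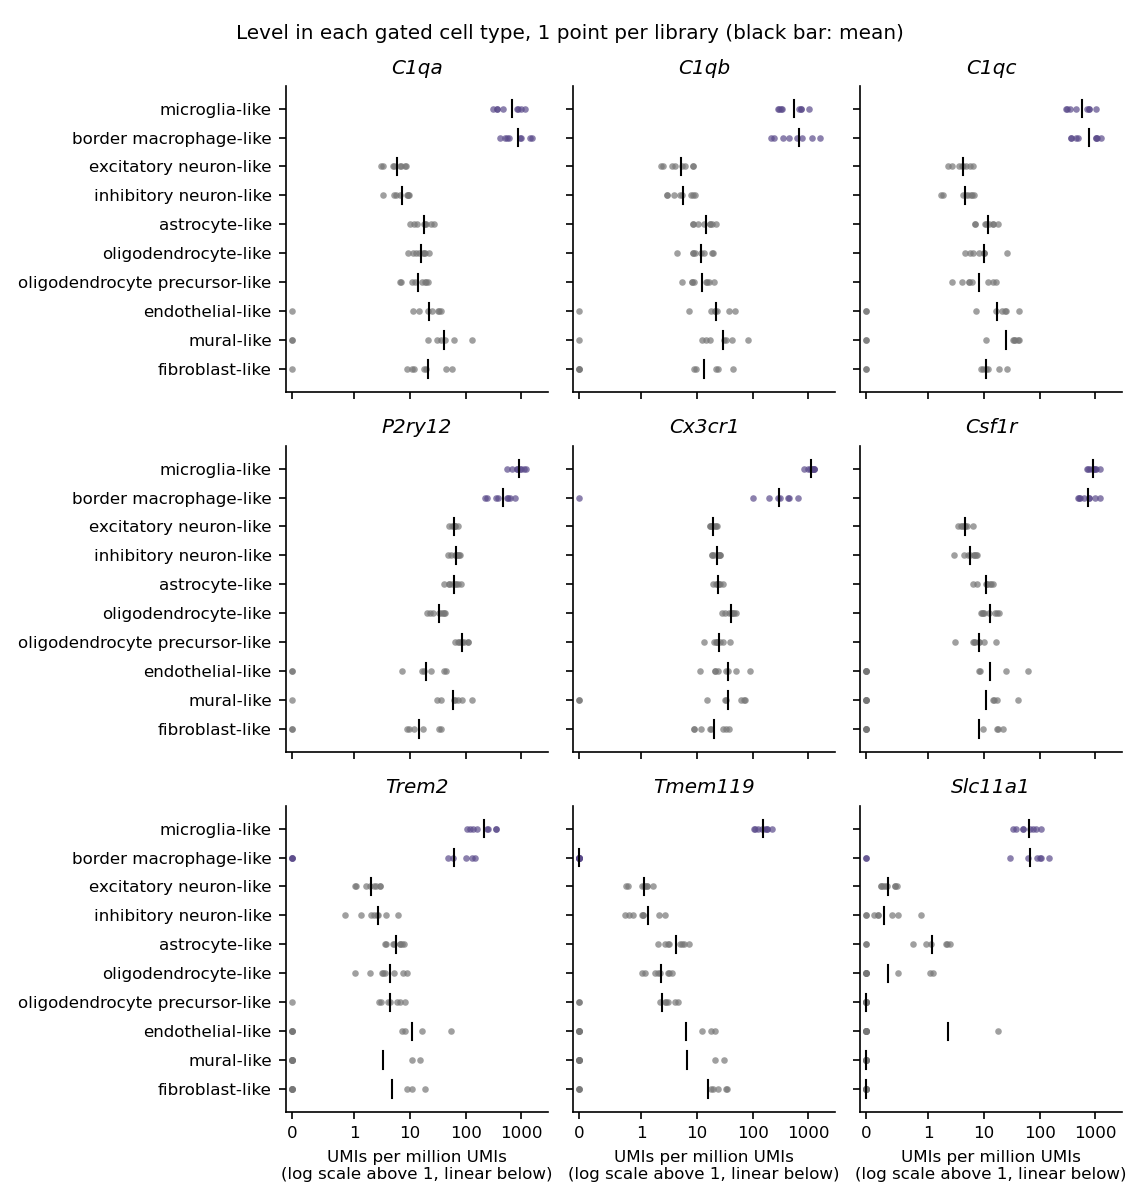
Level of each of the 9 genes (x axis, CPM, logarithmic above 1 and linear below) in 10 gated cell types (y axis), with 1 point per library and a black bar at the mean of 8. Microglia-like nuclei lie to the right of all types outside the myeloid lineage in each panel, border macrophage-like nuclei are at 0 for Tmem119, and P2ry12 and Cx3cr1 are also above 10 in every library of the neural types.

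P2ry12 and Cx3cr1 had the highest mean levels of the 9 members in neurons, astrocytes and the oligodendrocyte lineage. P2ry12 was at 61.8 ± 6.87 in excitatory neuron-like, 66.3 ± 10.3 in inhibitory neuron-like, 60.5 ± 13.5 in astrocyte-like, 86.3 ± 16.2 in oligodendrocyte precursor-like and 32.5 ± 8.58 in oligodendrocyte-like nuclei. Cx3cr1 was at 19.4 ± 2.25 in excitatory neuron-like and 40.1 ± 7.39 in oligodendrocyte-like nuclei. Of all UMIs in kept nuclei, microglia-like nuclei held 0.895%, and of those of P2ry12 they held 11.1%, of Cx3cr1 29.2% and of the other 7 members 38.9% to 49.7%.

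Ratios between members were taken within each type and library. For each UMI of Csf1r, microglia-like nuclei had 0.982 ± 0.201 UMIs of P2ry12, with a range of 0.730 to 1.32 over the 8 libraries, and excitatory neuron-like nuclei had 14.3 ± 3.94, with a range of 7.91 to 22.1. For Cx3cr1 these were 1.25 ± 0.209 and 4.50 ± 1.28. The 8 libraries of the 2 types did not overlap for either gene. For C1qa the same ratios were 0.701 ± 0.247 and 1.26 ± 0.320, and for Slc11a1 0.0685 ± 0.0213 and 0.0782 ± 0.0213, and here the ranges overlapped. Compared within each library, the ratio was higher in excitatory neuron-like than in microglia-like nuclei in 8 of 8 libraries for 7 genes, by 7.95 to 20.7 times for P2ry12, 2.34 to 4.64 times for Cx3cr1 and 1.57 to 2.27 times for C1qa. For C1qb, C1qc, Trem2 and Tmem119 the factor lay between 1.147 and 2.93, and for Slc11a1 the ratio was higher in 6 of 8 libraries. The factors of Cx3cr1 overlapped those of Trem2 and Slc11a1, and those of P2ry12 overlapped no other member's.

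**Figure D2:**
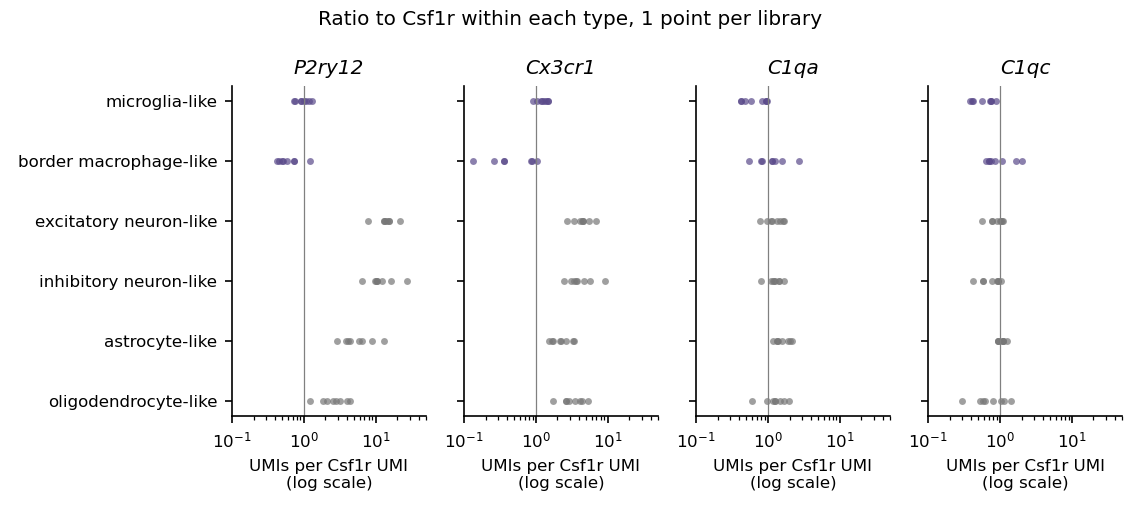
UMIs of P2ry12, Cx3cr1, C1qa and C1qc per UMI of Csf1r (x axis, logarithmic) in 6 gated types (y axis), with 1 point per library and a grey line at 1. P2ry12 runs from 7.91 to 22.1 in excitatory neuron-like against 0.730 to 1.32 in microglia-like nuclei, and 1 border macrophage-like library with no Cx3cr1 UMI is not drawn.

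How the counting treated strand and introns is not given in the sources used here. Med12l, on the opposite strand around P2ry12, was at 179 ± 10.0 in excitatory neuron-like and 227 ± 36.1 in oligodendrocyte precursor-like nuclei, where P2ry12 was highest outside the myeloid types. In microglia-like nuclei Med12l was at 693 ± 133. The genes Gorasp1, Csrnp1 and Xirp1, which lie on the strand of Cx3cr1 inside its annotated span, had 0 UMIs in each of the 10 gated types. Ttc21a, which lies inside the same span on the opposite strand, had 355 UMIs in excitatory neuron-like nuclei, and P2ry12, inside Med12l on the opposite strand, had 27506. The other genes inside that span, 1700019L13Rik, Gm47043 and Gm49427, are also on the opposite strand and had 96, 11 and 11. Of the 7 genes inside the Cx3cr1 span, the 4 on the opposite strand thus had counts and the 3 on the same strand had none. The part of these overlaps in the neuronal counts was not tested.

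Shares of nuclei with a UMI showed the same contrast. C1qa had a UMI in 41.5% to 73.8% of microglia-like and 3.04% to 7.20% of excitatory neuron-like nuclei, although the latter had a median of 7798 to 11149 UMIs. With each nucleus thinned to 1000 UMIs, which left out 326 shallower microglia-like nuclei of WT and 258 of Chd8het, these shares were 28.1% to 63.1% and 0.354% to 0.931%. P2ry12 had a UMI in 59.5% to 74.6% of microglia-like and 33.1% to 49.0% of excitatory neuron-like nuclei, or 44.7% to 66.8% and 5.45% to 7.31% after thinning. Slc11a1 had one in 4.84% to 12.3% and 0.264% to 0.473%, or 3.24% to 9.86% and 0% to 0.0729%.

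The genes whose mean level over the 10 types was most like that of the members were Ctss, a lysosomal protease of microglia (Pearson r = 0.996), Gm15232 (0.980), Gm30329 (0.979), Fcrls (0.978) and Cdh23 (0.977), out of 8461 genes compared. These r values describe 10 means from the same 8 libraries.

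The ligands of the receptors had their highest levels outside the myeloid types. Il34 was highest in mural-like nuclei, at 833 ± 159, then in fibroblast-like nuclei, at 191 ± 71.7, and was at 26.4 ± 3.34 in excitatory neuron-like nuclei, where the gene is known to be made. Csf1 was at 49.1 ± 6.35 in oligodendrocyte-like, 47.3 ± 22.9 in fibroblast-like and 45.1 ± 28.4 in endothelial-like nuclei, which overlapped, at 21.6 ± 4.62 in astrocyte-like and at 9.92 ± 4.55 in microglia-like nuclei. Cx3cl1 was spread over the types, from 44.0 ± 8.42 in oligodendrocyte-like to 93.9 ± 42.6 in endothelial-like nuclei, with 73.3 ± 14.9 in excitatory neuron-like and 76.3 ± 25.4 in microglia-like nuclei. The adaptor Tyrobp was instead highest in the myeloid types. Tyrobp, at 115 ± 38.9 in microglia-like and 221 ± 158 in border macrophage-like nuclei, was at 1.11 ± 0.466 in excitatory neuron-like nuclei, while Slc11a2, the transporter related to Slc11a1, was between 22.2 ± 5.85 and 49.1 ± 53.4 in every type.

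Within microglia-like nuclei, libraries were also compared by index type, a label that the choice of members did not use. The C1q genes and Trem2 were each 2.28 to 2.57 times as high in single-indexed as in dual-indexed libraries, and higher in each of the 4 groups of genotype and sex. In an edgeR quasi-likelihood model with sex, genotype and index type, 7 of the 9 members were called lower in dual-indexed libraries at a Benjamini-Hochberg adjusted p under 0.05, against 5.14% of the 9527 genes tested called lower and 11.5% called in either direction. All 9 members passed the filter on low counts. Index type equals replicate number here, and the litters are assumed to follow the numbers, so these cannot be told apart. Each index type holds only 2 pairs of libraries, those of the same sex and number, so p-values that count 8 separate libraries are too small where a pair shares its litter. The same holds for sex. With the 2 libraries of each pair summed, a fit added after the data were seen that has 4 units and takes its spread mostly from all genes together, edgeR called 6 of the 9 members lower, against 4.67% of 12150 genes, and Csf1r was no longer called.

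C1qa was at 1161, 988, 869 and 835 CPM in the single-indexed libraries of WT male, WT female, Chd8het male and Chd8het female, and at 372, 459, 362 and 308 in the dual-indexed ones. The lowest single-indexed library was thus above the highest dual-indexed one, with a log2 difference of -1.34 (SE 0.12, edgeR adjusted p 4e-06). C1qb was at 1004, 742, 728 and 680 against 326, 336, 280.3 and 299.9, a log2 difference of -1.32 (SE 0.12). C1qc was at 1042, 767, 698 and 755 against 347, 447, 314 and 294, a log2 difference of -1.20 (SE 0.13). All 3 chains of C1q thus had the same 4 libraries above the other 4.

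Trem2 was at 355, 344, 239 and 254 in single-indexed and at 120.4, 162, 106 and 134 in dual-indexed libraries, a log2 difference of -1.16 (SE 0.13, edgeR adjusted p 2e-05). Tmem119 was at 183, 182, 168 and 221 against 106, 123, 110.4 and 145, a log2 difference of -0.62 (SE 0.13, edgeR adjusted p 0.00426). For these genes too the index types did not overlap.

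Csf1r was at 1198, 1041, 923 and 996 against 893, 785, 749 and 717, a log2 difference of -0.39 (SE 0.12, edgeR adjusted p 0.0321), again without overlap. P2ry12 was at 1106, 1220, 835 and 991 against 671, 837, 546 and 945, a log2 difference of -0.46 (SE 0.13, edgeR adjusted p 0.0261), and here the libraries overlapped. The calls of these receptors were the least firm: with 1 library left out, P2ry12 was no longer called in 5 of 8 cases and Csf1r in 6 of 8. Cx3cr1, at 1130 ± 195 and 1114 ± 121, had a log2 difference of 0.00 (SE 0.12), and Slc11a1, at 68.6 ± 32.5 and 57.4 ± 16.7, of -0.21 (SE 0.20), and neither was called. Without overlap, every dual-indexed library was below every single-indexed one in 6 members and in 7.86% of all genes tested.

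**Figure D3:**
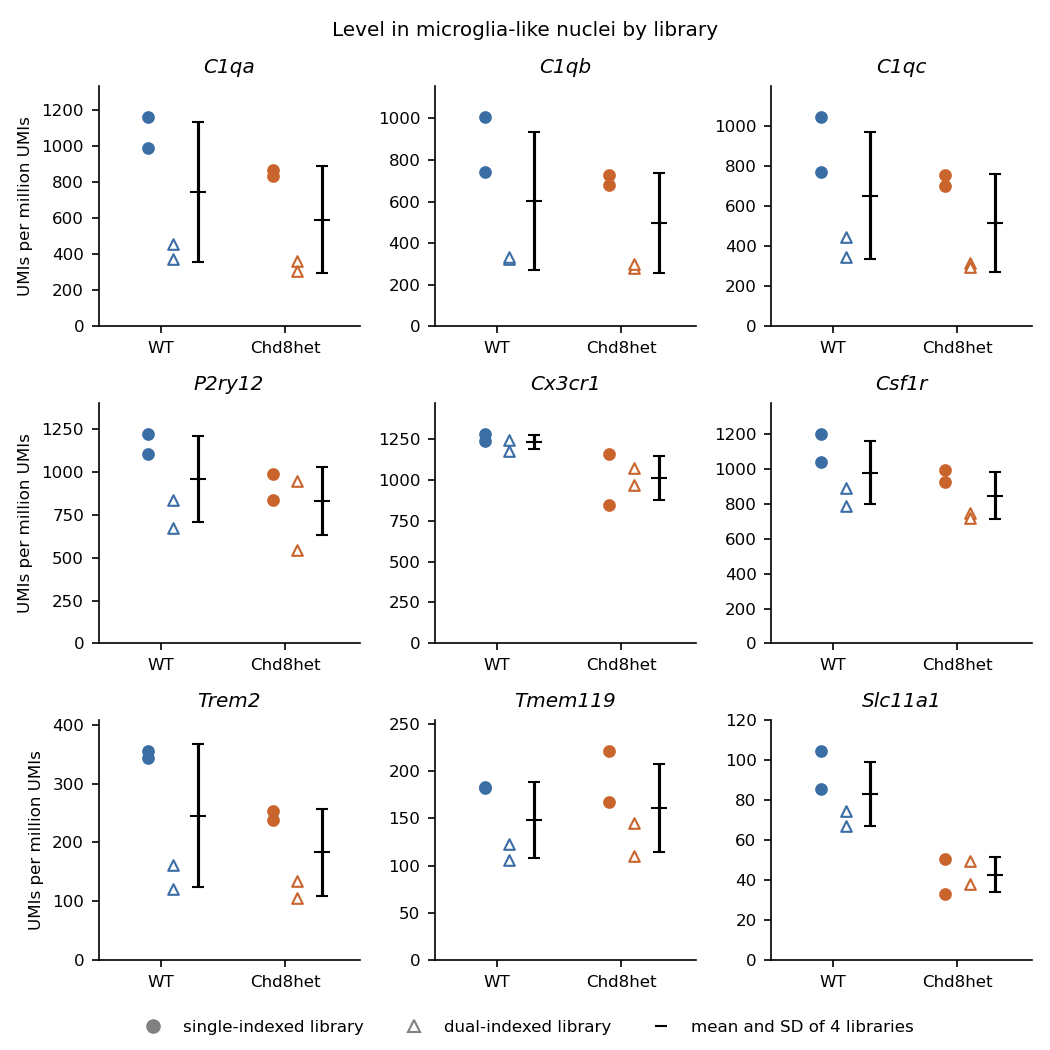
Level of each gene in microglia-like nuclei (y axis, CPM, from 0) by genotype (x axis), with filled circles for single-indexed and open triangles for dual-indexed libraries and the mean and SD of 4 libraries beside them. In the C1q, Trem2, Tmem119 and Csf1r panels all circles lie above all triangles, and in the Slc11a1 and Cx3cr1 panels all WT symbols lie above all Chd8het symbols.

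The size of the index difference went with the annotated length of the gene. Among all 9526 tested genes with an annotated length, the median log2 difference (dual minus single) was -0.44 for the 595 genes of up to 5 kb, -0.26 for 5 to 10 kb, -0.12 for 10 to 30 kb, 0.03 for 30 to 100 kb and 0.26 for the 1967 genes over 100 kb. The C1q genes, Trem2 and Tmem119 span 2887 to 7747 bases, and Cx3cr1 is the longest member. Of the genes of up to 5 kb, 23.7% were called lower in dual-indexed libraries and 1.85% higher, and of those over 100 kb 0.305% were called lower and 20.1% higher. All members but Slc11a1 lay below the median of their length class by more than their standard errors.

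Beside this, the microglia-like nuclei of single-indexed libraries had fewer UMIs, a median of 1318 ± 54.7 against 1563 ± 130.0 per nucleus, and larger shares of mitochondrial UMIs, 0.771% ± 0.236 against 0.419% ± 0.125, and of ribosomal protein UMIs, 0.670% ± 0.199 against 0.373% ± 0.0758 (mean ± SD, n = 4 each). Summed markers of oligodendrocyte precursors in these nuclei were at 95.9 to 130.2 CPM in single-indexed and 152 to 275 in dual-indexed libraries, and those of endothelial cells at 34.4 to 58.0 and 67.0 to 93.4, neither with overlap. Markers of inhibitory neurons were at 229 ± 54.3 and 333 ± 95.4 and those of excitatory neurons at 922 ± 98.0 and 1026 ± 107, and these overlapped. Other sums were instead higher in single-indexed libraries, also with overlap. Astrocyte markers were at 586 ± 84.1 and 495 ± 35.8, oligodendrocyte markers at 642 ± 43.1 and 553 ± 65.5, and mural markers at 24.0 ± 9.32 and 20.8 ± 4.08. RNA of other types was thus not higher throughout in either index type. The part of these values in the index difference was not tested.

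**Figure D4:**
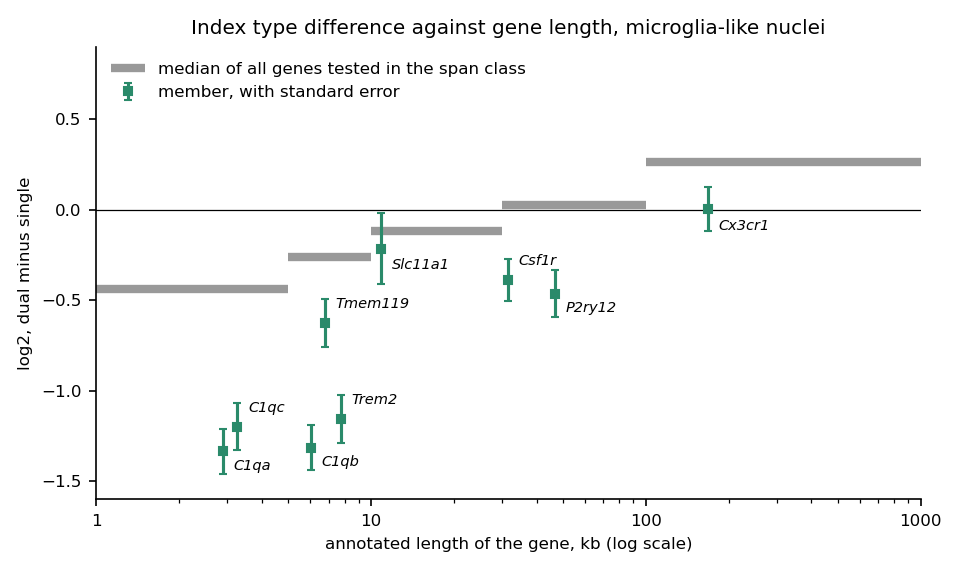
Fitted log2 difference between dual-indexed and single-indexed libraries (y axis) of the 9 genes, with standard errors, against annotated gene length (x axis, kb, logarithmic), with grey bars at the median of all tested genes in 5 length classes, drawn between 1 and 1000 kb. The medians climb from -0.44 to 0.26 with length, and the C1q genes and Trem2 lie between -1.34 and -1.16, below the bars of their classes.

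The lists of related genes are to be read against the 5.14% of all tested genes called lower and 11.5% called in either direction. By length, 23.7% of genes of up to 5 kb were called lower and 20.1% of those over 100 kb were called higher. Of the list of homeostatic microglial genes and their regulators, 9 of 21 tested were called lower in dual-indexed libraries and 0 higher, with a median log2 difference of -0.13 against 0.00 over all genes. Among them were Cst3, an abundant cysteine protease inhibitor (-1.25, SE 0.15), Ctss (-0.99, SE 0.13), Olfml3 (-0.89), Sparc (-0.89), P2ry13 (-0.72), Adgrg1 (-0.63), Golm1 (-0.44) and Fcrls (-0.36). Of the metal transport and phagosome list 7 of 18 were called lower and 1 higher (median -0.22). The lower ones were Cd68 (-1.34), the ferritin chains Ftl1 (-1.32) and Fth1 (-0.95), Cyba (-0.96), Lamp1 (-0.89), Lamp2 (-0.52) and Slc40a1 (-0.49). Of the receptor partners 5 of 18 were called, all lower, which were Tyrobp (-0.78), Cx3cl1 (-0.78), P2ry13, Apoe (-0.65) and P2ry6 (-0.57), while the median of the list was 0.16. Of the 4 activation genes tested 3 were called lower, Cd74 (-1.28), Cd9 (-0.99) and Apoe (median -0.82). In the complement list 3 of 16 were called, all higher, Csmd2 (0.98), Sez6l (0.87) and Csmd1 (0.54), which are known mainly from neurons (median -0.15). These calls are from the same edgeR fit.

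The comparison of Chd8het with WT in microglia-like nuclei asked which microglial genes differ with Chd8 dosage. With sex and genotype in the model, edgeR called 0 of 9527 genes (0%) and had 337 with an unadjusted p under 0.05. The DESeq2 Wald test also called 0, and 156 of its unadjusted p were under 0.05. With a term for each pair (the libraries that share sex and number) in place of sex, edgeR again called 0 (0%) and had 811 such genes. On simulated counts of the same 9527 genes the main model called 42 of 112 genes changed 2-fold and 81 of 88 changed 4-fold, so changes of 2-fold or less could often go uncalled. Slc11a1 is a member because it had been called before in these data, in clustered nuclei with pairs in the model, so its genotype values here are no independent evidence.

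Slc11a1 was at 85.9 and 74.8 CPM in the 2 WT males and at 104.5 and 67.4 in the WT females (single-indexed library first). The Chd8het males were at 33.0 and 49.5 and the Chd8het females at 50.8 and 38.1. Every Chd8het library was below every WT library, from which it follows that each was below its WT partner in 4 of 4 pairs. Among all tested genes 1.52% had every Chd8het library below every WT library. The means were 83.1 ± 16.2 and 42.9 ± 8.74, from 346 UMIs in all, with a log2 difference of -0.95 (SE 0.22). Taken within index types, the Chd8het mean was 0.440 times the WT mean in single-indexed and 0.616 times in dual-indexed libraries. With 1 library left out at a time, the log2 difference ran from -1.07 to -0.80.

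The share of microglia-like nuclei with a UMI of Slc11a1 was 11.2% ± 1.10 in WT and 6.94% ± 1.84 in Chd8het, and 7.66% ± 1.56 and 4.52% ± 1.13 after thinning to 1000 UMIs. This difference is described and was not tested, since the gene was chosen for it. The genes most like Slc11a1 over the 8 microglial libraries, of 8461 compared, were D930016D06Rik (r = 0.958), Ugp2 (0.946), Ttyh3 (0.944), 8030453O22Rik (0.943) and Map3k8 (0.930). With 8 points and that many genes, r values of this size describe these libraries only.

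Cx3cr1 was the other member whose genotypes did not overlap. It was at 1236, 1244, 1277 and 1174 in WT and at 847, 968, 1160 and 1069 in Chd8het (males, then females), with means of 1233 ± 43.1 and 1011 ± 134 and a log2 difference of -0.29 (SE 0.15). The gap between the lowest WT and the highest Chd8het library was small beside the spread of the Chd8het libraries.

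The remaining members overlapped between genotypes. The Chd8het mean was 0.797 times the WT mean for C1qa, 0.826 for C1qb, 0.792 for C1qc, 0.865 for P2ry12, 0.864 for Csf1r, 0.747 for Trem2 and 1.08 for Tmem119. Their log2 differences ran from -0.42 (SE 0.35) for Trem2 to 0.11 (SE 0.22) for Tmem119. The C1q genes were lower in the Chd8het library of all 4 pairs, as were Trem2 and Csf1r, P2ry12 in 3 and Tmem119 in 1. The share of all tested genes that were lower in all 4 pairs was not counted. These counts are therefore only a description of members that were chosen by this contrast. With 1 library left out the log2 differences ran from -0.64 to 0.045 for C1qa, -0.55 to 0.14 for C1qb, -0.66 to 0.064 for C1qc, -0.67 to -0.066 for Trem2 and -0.040 to 0.31 for Tmem119. The C1q genes were above 0 only without WT male 1, and Tmem119 was below 0 without Chd8het female 1 and without WT female 2. For each of these 7 genes the difference between the means was smaller than the SD within either genotype. With pairs in the model the standard errors of these log2 differences were 0.12 to 0.14, and the differences lay between -0.39 for Trem2 and 0.12 for Tmem119.

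The marker genes that defined the gate were also lower in Chd8het, with summed levels of 13112 to 15208 CPM in WT and 10067 to 13218 in Chd8het. Markers of excitatory neurons in the same nuclei were at 790.4 to 1019 in WT and 980.1 to 1174 in Chd8het. Per UMI of the 20 gating markers, a scale chosen after these values were seen, Slc11a1 was 0.610 times as high in Chd8het as in WT and still did not overlap. On that scale Cx3cr1 was at 0.954 and overlapped, P2ry12 was at 1.00 and Csf1r at 1.01, which is a change of sign for Csf1r. C1qa was at 0.940, C1qb at 0.974, C1qc at 0.930 and Trem2 at 0.875, all nearer to 1 than per UMI of all genes, and Tmem119 was at 1.26. The part of the marker and neuronal RNA levels in the genotype values was not tested beyond this scaling.

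**Figure D5:**
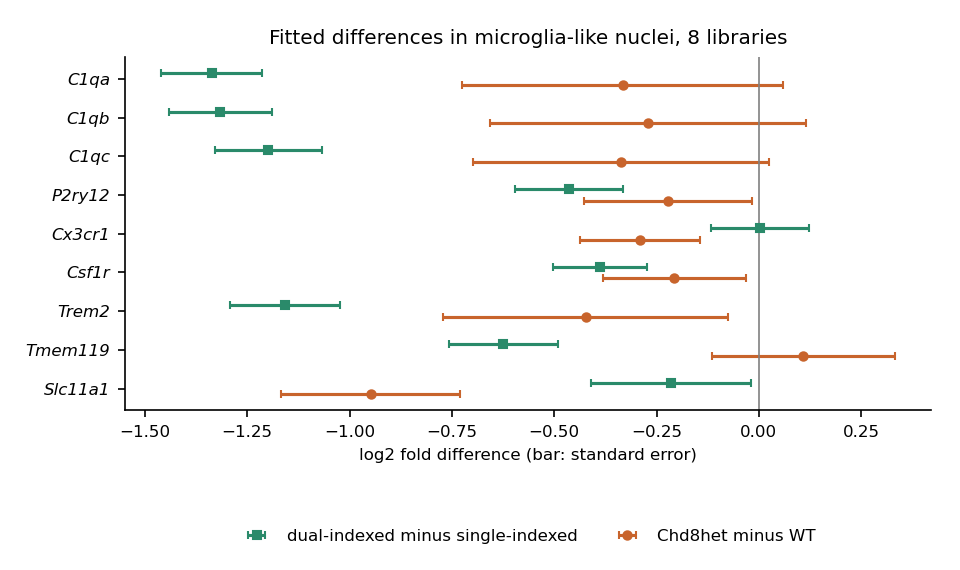
Fitted log2 differences with standard errors (x axis) of the 9 genes (y axis) in microglia-like nuclei, for dual-indexed minus single-indexed libraries (green squares) and Chd8het minus WT (orange circles), 8 libraries. The C1q genes and Trem2 lie farthest left for index type, and Slc11a1, at -0.95, farthest left for genotype.

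Of the lists around the members, none held a gene called for genotype in microglia-like nuclei, in either model. The homeostatic list had 20 of 21 tested genes with a log2 difference below 0 and a median of -0.21, against 50.8% of all genes and a median of 0.00. Its smallest unadjusted p values belonged to Nrros, which presents TGF-beta on myeloid cells (202 ± 36.9 in WT, 138 ± 35.7 in Chd8het), to Tgfb1 itself (120.7 ± 23.7 and 85.1 ± 11.96), to Fcrls (629 ± 83.6 and 484 ± 83.7) and to Irf8 (159 ± 23.9 and 133 ± 22.6). The sum of the gating markers moved the same way, as given above.

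In the complement list 5 of 16 were below 0, with a median of 0.12. Itgam, a chain of complement receptor 3, was at 371 ± 32.6 and 283 ± 47.6, C5ar1 at 26.5 ± 9.78 and 17.1 ± 3.25, and Csmd1 at 1605 ± 393 and 2140 ± 437 (edgeR adjusted p 0.997 for each). In the receptor partner list 13 of 18 were below 0 (median -0.16), and the smallest unadjusted p values were those of Pik3cg (112 ± 15.1 in WT and 85.2 ± 26.3 in Chd8het), Il34, which was higher in Chd8het (17.9 ± 5.75 and 25.2 ± 6.49), Vav1 (169 ± 29.1 and 142 ± 10.98) and Plcg2 (248 ± 40.3 and 211 ± 16.7). In the metal transport and phagosome list 12 of 18 were below 0 (median -0.08), with the iron exporter Slc40a1 at 119 ± 27.5 and 88.8 ± 17.2, Cyba at 92.9 ± 41.1 and 61.6 ± 23.3, Ncf1 at 145 ± 30.7 and 119 ± 14.9 and the transferrin receptor Tfrc at 29.7 ± 6.06 and 38.8 ± 9.49. Of the 21 activation genes only 4 passed the count filter, with 2 below 0.

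Ligands and regulators made outside microglia were tested only in excitatory neuron-like, inhibitory neuron-like and astrocyte-like nuclei. Oligodendrocyte-like and mural-like nuclei, where Csf1 and Il34 had their highest means, were not tested. edgeR called 0 of 19929 genes in excitatory neuron-like, 0 of 14398 in inhibitory neuron-like and 0 of 12433 in astrocyte-like nuclei (0% each). The genes with an unadjusted p under 0.05 numbered 283, 254 and 441. With pairs in the model it called 0 in each (0%), and DESeq2 was not run in these types. Cx3cl1 was at 71.6 ± 12.2 in WT and 74.9 ± 19.0 in Chd8het excitatory neuron-like nuclei, and Il34 at 25.6 ± 2.47 and 27.1 ± 4.28. Csf1 in astrocyte-like nuclei was at 21.6 ± 6.05 and 21.6 ± 3.62.

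Sex was tested in the same model as genotype, and it too was not used to choose the members. Of the 9527 genes 6 were called (0.063%), which were Xist and Tsix, higher in females, and Kdm5d, Eif2s3y, Uty and Ddx3y, higher in males. No member was called. P2ry12 had the largest difference, 790 ± 242 in males and 998 ± 161 in females, a log2 difference (male minus female) of -0.37 (SE 0.20, edgeR adjusted p 1.00). Tmem119 followed at 142 ± 39.2 and 167 ± 43.1, and the C1q genes differed by 0.05 to 0.15 on the log2 scale, less than their standard errors of 0.36 to 0.39.

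Whether the genotype difference itself differed between the sexes was tested with an interaction term. edgeR called 0 of 9527 genes (0%) and had 239 with an unadjusted p under 0.05, DESeq2 was not run for this term, and with replicate number in the model it called 2 (0.021%), Robo1 and Lsamp, which are known mainly from neurons. No member was called in either model. For Slc11a1 the interaction was -0.02 (SE 0.45), and for the other members it lay between -0.32 and 0.05.

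The number of microglia was compared as their share among gated nuclei. It was 6.03% and 4.41% in WT males, 5.94% and 4.90% in WT females, 5.10% and 4.09% in Chd8het males and 6.18% and 4.92% in Chd8het females, so the genotypes overlapped. The means were 5.32% ± 0.79 and 5.07% ± 0.86, a difference of -0.249 percentage points (exact permutation test, two-sided, p = 0.714). This test took the libraries as separate and kept neither the pairs nor the index type. Single-indexed libraries had 5.81% ± 0.48 and dual-indexed ones 4.58% ± 0.40 over 4 libraries each, which did not overlap. With the pair of libraries as the unit this is 2 against 2, where an exact permutation test cannot go below p = 0.333, so no test is given. Within single-indexed libraries the genotype difference was -0.347 points and within dual-indexed ones -0.151. Both differences changed direction under a stricter nucleus filter (at least 1000 genes and at most 1% mitochondrial UMIs), which kept 1543 microglia-like nuclei. The share was then 2.16% ± 0.478 with a single index and 3.11% ± 0.539 with a dual index, and the genotype difference was 0.305 points (exact permutation p = 0.514).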

How the data were processed

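The deposited files held whole-number UMI counts per gene and barcode, which the authors made with the 10x Genomics 3' kit (v3 chemistry) per the labels' protocols. STAR 2.7.9a, STARsolo, Cell Ranger and mm10 are named in the submitters' processing notes, with no settings. Coordinates and lengths were added here from GENCODE M21 (GRCm38), which matched 32235 of 32285 gene identifiers. Promoter sequences are from RefSeq.

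Nuclei with at least 500 genes and at most 5% mitochondrial UMIs were kept. A nucleus joined a type when at least 3 markers were detected and the markers made up at least 20 UMIs per 10000. These cuts were set after the score distributions were seen. Nuclei passing 2 gates were left out, save that the border macrophage and lymphocyte gates came before the microglial one. The lymphocyte gate, with 9 markers, lay outside the 10 types, and its nuclei were not counted among the gated nuclei. No doublet caller was run.

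UMIs were summed per library and type, since the animal is the replicate. edgeR 4.0.16 (quasi-likelihood F test, TMM factors, minimum count 10, Benjamini-Hochberg adjustment over all genes tested) was the main test and DESeq2 1.42.0 an alternative, in R 4.3.3. The model was tested on simulated data of 9527 genes. It made 9 false calls there, beside 42 right calls of genes changed 2-fold and 81 of genes changed 4-fold. Shares were compared with exact permutation tests (scipy 1.17.1). Libraries of the same sex and number deviated together from the means of their genotypes (r = 0.198 to 0.396 in 4 pairs). Libraries of the same number but other sex had r = 0.086 to 0.256, which overlaps. Libraries of the same sex and number also share index type, so these r values cannot show which were litter mates. The numbers were taken to mark the litter pairs as an assumption. The members and gene lists were chosen with earlier results of these data known. The rule for named genes took all members, the called genes of 5 pathway lists or otherwise at most 4 per list with the smallest p, ligands and partners by level, and the 5 genes most like the members, and the 5 most like Slc11a1, in pattern. Other settings tried covered normalisation, filters, gates, pairs and each library left out. A few genes that the rule takes are not reported here.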

Additional observations from a re-analysis of the deposited data

How the results depend on the processing

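Each member kept the direction of its genotype difference in at least 15 of 18 other settings. P2ry12, Cx3cr1, Trem2 and Slc11a1 kept it in all 18, Slc11a1 with log2 differences of -1.14 to -0.71. These include 1 added after the data were seen, the scaling per gating marker UMI. Without the count filter, among 21784 genes, 9 were called for genotype and 19 for sex, none of them a member. With a replicate block (a paired analysis by number) 12 genes were called for sex and 2 for sex by genotype, and the sex difference of C1qc became -0.00266. No replicate block changed another call of a member or of the genotype count. With 1 library left out, genes called for index type numbered 612 to 1061. They numbered 612 without WT male 1, 712 without Chd8het male 1, 621 without Chd8het male 2 and 635 without Chd8het female 1. Those called lower, 490 with all libraries, numbered 267 without WT male 1, 265 without WT male 2, 258 without Chd8het male 1, 238 without Chd8het male 2 and 290 without Chd8het female 1. Leaving out 1 library moved the sex difference (log2, male minus female) of C1qa between -0.31 and 0.39, C1qb between -0.26 and 0.44, C1qc between -0.35 and 0.38, Csf1r between -0.054 and 0.17, Trem2 between -0.51 and 0.092 and Slc11a1 between -0.27 and 0.021. It moved the index difference of Cx3cr1 between -0.082 and 0.066, and summing the libraries of each pair made it -0.0025. The genotype difference in the share of microglia-like nuclei was 0.305 percentage points under a stricter nucleus filter, which keeps 1543 of them, and -0.616 to 0.078 with 1 library left out, being positive without Chd8het male 2. Causes were not tested. Depth limits Slc11a1 most, at 25 to 73 UMIs per library, then Tmem119 and Trem2, at 51 and 58 UMIs in the shallowest library.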

Other observations

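The share of border macrophage-like nuclei was 0.162% ± 0.0222 in the WT libraries and 0.117% ± 0.0278 in those of Chd8het, with n = 4 each. A two-sided exact permutation test, which took the libraries as separate and did not keep the pairs, gave p = 0.0571. The difference was not tested with the pairs kept. Each library held only 7 to 17 of them, and with nuclei that pass 2 gates kept the shares were 0.156% ± 0.0215 and 0.130% ± 0.0310 (exact permutation p = 0.257).

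Without the count filter the genes called for genotype in microglia-like nuclei included some lower and some higher in Chd8het. The lower ones were Rarb (log2 difference -2.11, 205 UMIs), Nrap (-3.84, 49 UMIs), Rgs9 (-1.78) and Bnc2 (-1.87). Among the higher ones were Erbb4 (0.79, 1953 UMIs), Gm1992 (1.25), Cntnap5a (0.82, 1146 UMIs) and Cntnap5c (1.24). None is a member, and Erbb4, Cntnap5a and Rgs9 are known mainly from neurons. Erbb4 was among the 10 leading genes of inhibitory neuron-like nuclei here and Bnc2 the first of fibroblast-like nuclei. In microglia-like nuclei, markers of excitatory neurons were at 790.4 to 1174 CPM. Those of inhibitory neurons were at 241 ± 52.1 in WT and 321 ± 110 in Chd8het. Those of fibroblasts were at 107 in WT female 2 and at 10.4 to 33.5 in the other 7 libraries. Whether RNA of other nuclei bears on these calls was not tested.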
